A study of Homo sapiens with 6 samples.

Results

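The cancer-testis antigens examined here were 45 genes taken from a fixed list of symbols and matched to the Ensembl identifiers of the count tables, out of 60617 genes counted in all. The tables came from xenografts of WM983-B, a long-established line of human melanoma cells, grown in a host animal that the sources used here do not describe. All 6 tumors carried the same line. In 3 of them the animals had received anle138b systemically, and the other 3 came from animals without treatment. Chemically it is a diphenyl-pyrazole, and it binds aggregated α-synuclein and disturbs its oligomers. Dose, duration and host strain were not given. The sample titles fall into 2 naming sets: a set named Juni2018 holds anle138b 1 and 2 and untreated 1 and 2, and a set named blau holds anle138b 3 and untreated 3. What the sets stand for is not stated, so they are called naming sets throughout. Whatever separates them (time, animals, tumor passage or sequencing) cannot be told apart.

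Cancer-testis antigens are proteins made in normal male germ cells, and in few other normal tissues, that many melanomas and other tumors make again. Most of their genes lie in clusters on the X chromosome, where DNA methylation of CG-rich start sites keeps them silent in most somatic cells, and loss of that methylation is a known route to their return. Peptides of several of them are presented on MHC class I, and MAGEA1 was found as an antigen seen by the T cells of a melanoma patient, so the family is used as a target for vaccines and engineered T cells. Of the 45 genes, 41 lie on X. PRAME is on chromosome 22, DDX43 on chromosome 6, and the meiotic genes SYCP1 and BRDT on chromosome 1.

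The tumor libraries held 12400782 to 27599159 counts on genes, and the 2 blau libraries were the deepest (22768826 and 27599159). Levels are depth-scaled counts in CPM, with library sizes scaled by the trimmed mean of M-values (TMM). A low-count filter left 20423 genes for testing, and 19 of the 45 antigens passed it. All 16 melanoma line markers and all 10 melanocyte antigens of the lists passed the same filter. The libraries within a treatment group differed by 10.5 to 58.8 times the sampling noise (chi-square per degree of freedom). Within a group, no table was therefore a copy or a second sequencing of another. Treated and untreated libraries were not compared in this way. Whether each tumor came from its own animal is not stated, and the p-values below measure the spread between these libraries only. In bulk tumor RNA, fewer cells expressing a gene and less RNA of it per cell cannot be told apart.

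Stretches upstream of 7 antigen genes are shown here because they carry the CG dinucleotides that this family is known for, in genes on either side of the main difference described below. They come from RefSeq start-site windows of GRCh38.p14. Each is written 5′ to 3′ on the gene's strand and ends before the gene's first annotated base, with every CG in capitals. MAGEB2 (chrX:30215360-30215559, plus strand), LUZP4 (chrX:115289515-115289714, plus), CT83 (chrX:116463004-116463203, minus), XAGE2 (chrX:52368821-52369020, plus) and PRAME (chr22:22559362-22559515, minus) had more reads in the blau set. MAGEA4 (chrX:151912274-151912473, plus) and MAGEC1 (chrX:141903694-141903893, plus) had fewer.
MAGEB2: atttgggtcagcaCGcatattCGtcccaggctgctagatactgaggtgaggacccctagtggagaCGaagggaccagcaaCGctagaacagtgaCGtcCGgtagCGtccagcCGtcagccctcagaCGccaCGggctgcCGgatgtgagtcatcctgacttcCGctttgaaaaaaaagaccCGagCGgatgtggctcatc
LUZP4: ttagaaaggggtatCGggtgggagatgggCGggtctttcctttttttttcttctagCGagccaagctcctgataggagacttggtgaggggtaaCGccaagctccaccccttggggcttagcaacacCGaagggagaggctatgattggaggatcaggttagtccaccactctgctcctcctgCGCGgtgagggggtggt
CT83: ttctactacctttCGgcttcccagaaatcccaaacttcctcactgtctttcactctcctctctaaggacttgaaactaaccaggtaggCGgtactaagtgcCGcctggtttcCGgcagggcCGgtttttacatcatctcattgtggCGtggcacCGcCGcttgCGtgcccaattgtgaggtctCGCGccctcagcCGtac
XAGE2: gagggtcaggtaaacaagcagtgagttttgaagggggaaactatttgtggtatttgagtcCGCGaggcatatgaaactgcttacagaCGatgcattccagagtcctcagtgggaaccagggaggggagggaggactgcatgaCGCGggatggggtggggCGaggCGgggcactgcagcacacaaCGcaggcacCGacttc
PRAME: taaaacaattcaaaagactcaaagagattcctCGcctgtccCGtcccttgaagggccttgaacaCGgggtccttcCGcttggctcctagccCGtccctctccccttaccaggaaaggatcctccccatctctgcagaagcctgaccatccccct
MAGEA4: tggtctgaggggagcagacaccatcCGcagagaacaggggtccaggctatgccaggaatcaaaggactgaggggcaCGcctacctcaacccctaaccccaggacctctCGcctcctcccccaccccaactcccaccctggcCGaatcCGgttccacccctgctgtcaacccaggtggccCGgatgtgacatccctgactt
MAGEC1: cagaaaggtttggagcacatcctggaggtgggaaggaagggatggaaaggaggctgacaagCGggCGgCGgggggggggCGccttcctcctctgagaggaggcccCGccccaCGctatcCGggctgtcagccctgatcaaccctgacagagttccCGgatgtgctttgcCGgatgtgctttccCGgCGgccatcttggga

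The stretches held between 5 (PRAME, 154 bases) and 14 (MAGEB2, 200 bases) CG dinucleotides. Over the full 250 bases upstream of the start, 40 antigens had a RefSeq window, and MAGEA1, MAGEA10, CTAG1B, CTAG2 and SSX3 did not. The 40 windows held a median of 8 CG (range 1 to 18). Over 27305 windows of all genes the median was 11 (quartiles 3 and 23). For MAGEA11 (18 CG), MAGEC3, GAGE1 and XAGE1B the window lay 23832, 56350, 9517 and 3735 bases from the annotated gene start. The 16 matched antigens that passed the expression filter had a median of 9 CG (3 to 18), and the 24 that did not pass had 7.5 (1 to 16), and the ranges overlapped. The letters GGAAGT, the core of sites for ETS factors, stood on either strand in 12 of the 40 windows and in 19.9% of all windows. The E-box CACGTG stood in 3 of 40 and in 6.49%. The printed stretches of MAGEB2, MAGEA4 and MAGEC1 share the letters CGGATGTG, which resemble an ETS site and were chosen for a search only after the sequences were seen. On either strand these letters stood in 10 of the 40 windows, against 0.579% (158) of all windows. MAGE genes made up 8 of the 10, among 16 MAGE windows, and MAGEB2 and MAGEC1 held 2 copies each. The others were CSAG1, whose start lies 44 bases from that of MAGEA12 on the opposite strand, and SSX2. Many of these genes are related copies, so the matches are not independent. Genes with the letters stood on both sides of the expression filter (6 and 4) and on both sides of the set difference. The PRAME and MAGEA4 stretches also overlap annotated exons of other genes, which for MAGEA4 is the antisense gene MAGEA4-AS1.

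Few of the antigens made up most of the reads. Scaled by exon length (mean CPM per kb of exon over the 6 libraries), PAGE5 was highest at 66.5, followed by CTAG2 at 63.3, MAGEA12 at 31.6, MAGEA6 at 29.2, MAGEA3 at 25.8 and CSAG1 at 24.6. SSX1 followed at 14.3, MAGEA4 at 12.8 and MAGEA10 at 8.0. Without length scaling, 10 of the 45 had a mean of at least 10 CPM and 19 a mean of at least 1 CPM, and the highest 6 carried 74.6% of the summed CPM. The summed level of the 45 genes was 407 to 537 CPM in the 4 Juni2018 libraries and 294 and 381 CPM in the blau libraries. Antigens with at least 3 counts numbered 21 in each Juni2018 library, and 29 and 27 in the deeper blau libraries anle138b 3 and untreated 3.

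**Figure D1:**
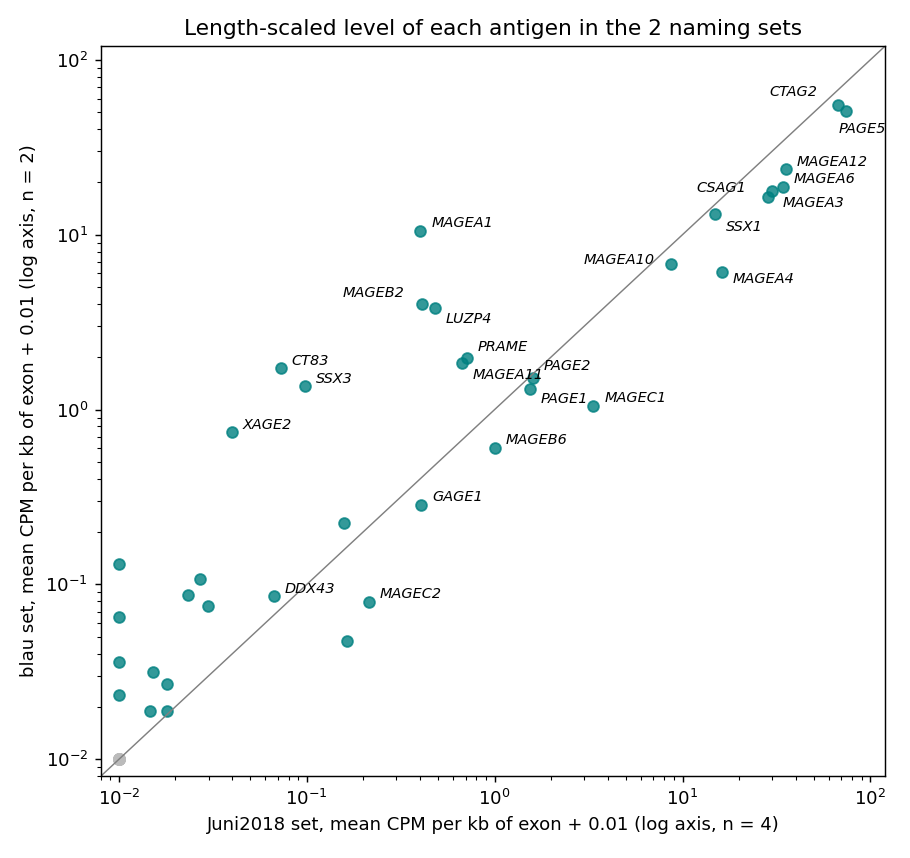
Mean level of each of the 45 antigens per kb of exon in the Juni2018 set (horizontal, 4 libraries) and the blau set (vertical, 2 libraries), both on log axes after adding 0.01, with the line of equal level. The highest genes (PAGE5, CTAG2) lie near or under the line, and MAGEA1 stands at 10.5 in blau against 0.393 in Juni2018. Genes without counts sit at the lower left corner in grey.

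Of the 26 antigens that did not pass the filter, 8 had no count in any library: MAGEA2, MAGEA9, MAGEB4, CTAG1B, SSX2, SSX4, XAGE1B and SPANXA1. A count of 0 over all 6 libraries allows a level of up to 0.0280 CPM (3 counts, counting error only). All of these but MAGEB4 share over 75% of their transcripts' 50-base stretches with another gene. Reads from such stretches have more than one place to align, and whether the counter kept them is not stated. For these genes, CTAG1B (which encodes NY-ESO-1) and MAGEA2 among them, a 0 cannot be read as absence of the RNA. Over all 45, 10 antigens exceeded that share and 0 of the 10 passed the filter. The sharing also reaches expressed members: MAGEA3 shares 54.9% of its stretches with MAGEA6, MAGEA6 shares 52.0% with MAGEA3, and CTAG2 shares 43.1% with CTAG1B, so their levels are uncertain. With copies that share at least 50% of the stretches summed, no call of the other antigens below changed, and MAGEA3 and MAGEA6 counted as 1 gene were lower in the blau set by 0.82 on the log2 scale (adjusted p = 0.0130, edgeR). The remaining 18 had counts, but too few or in too few libraries: MAGEA8, MAGEB1, MAGEB3, MAGEC2, MAGEC3, GAGE2A, SSX3, SSX5, XAGE2, CT83, CT45A1, SPANXB1, SPANXC, SPANXD, DDX43, DDX53, SYCP1 and BRDT.

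**Figure D2:**
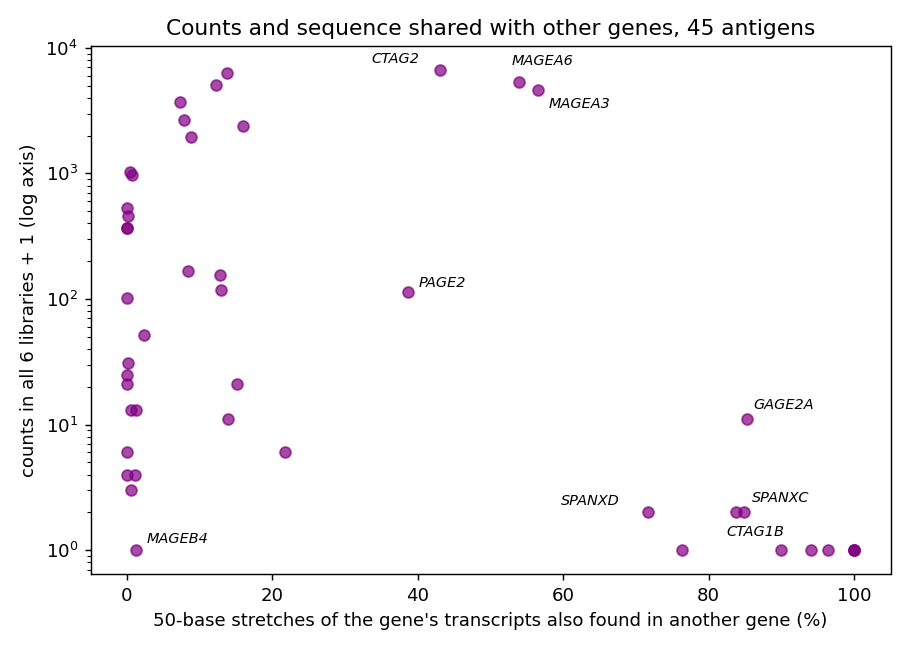
Share of each antigen's 50-base transcript stretches that another gene also holds (horizontal, percent) against its counts in all 6 libraries plus 1 (vertical, log axis), 1 point per gene. The 10 genes over 75% lie at the bottom right, while MAGEA3, MAGEA6 and CTAG2 stand at the top middle.

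The treatment comparison asks whether anle138b changed the antigen repertoire of the tumors. In edgeR's quasi-likelihood test with the naming set in the model, 215 of 20423 genes differed at an adjusted p below 0.05 (Benjamini-Hochberg), which is 1.05%, 134 higher and 81 lower with anle138b. Of the 19 antigens tested, 0 were higher (0.656% of all genes) and 1, LUZP4, was lower (0.397% of all genes). The median log2 difference over the 19 was 0.02, beside -0.01 over all genes tested. Unadjusted p-values below 0.05 in edgeR were found for 3 of the 19 antigens (LUZP4, MAGEA10 and GAGE1) and for 1734 of all 20423 genes tested. The 3 treated and 3 untreated libraries overlapped for each of the 19, while 8.50% of all genes tested had groups that did not overlap.

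LUZP4 (ENSG00000102021, chrX:115289727-115307556, plus strand) encodes a leucine zipper protein that takes part in mRNA export. Its level was 0.688, 0.320 and 2.44 CPM in anle138b 1, 2 and 3, and 1.28, 0.963 and 10.6 CPM in untreated 1, 2 and 3. The underlying counts were 9, 4 and 69 against 21, 13 and 250. The treated libraries were lower within each naming set, and the groups overlapped because the blau libraries stood above the others. The log2 difference was -1.77 ± 0.32 (SE, 3.42-fold lower), with an adjusted p of 0.0360 in edgeR's quasi-likelihood test. By set, the difference was -2.12 in the 2 blau libraries and -1.15 in the Juni2018 libraries alone, where the adjusted p was 0.610 in the same test. The call was also lost without untreated 1 (-1.73, adjusted p = 0.138), without anle138b 3 (-1.14, adjusted p = 0.616), without untreated 3 (-1.14, adjusted p = 0.608) and in a fit without the set term (-1.81, adjusted p = 0.9999).

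The other 18 antigens did not pass the test, and their log2 differences lay between -0.91 and 0.49. MAGEA10, whose product is a target of engineered T cells, had 27.2, 27.0 and 23.9 CPM in anle138b 1, 2 and 3 and 19.3, 26.5 and 15.3 CPM in untreated 1, 2 and 3. The difference was 0.38 ± 0.15 (SE) with an adjusted p of 0.467 in edgeR. Only untreated 2 reached the treated range. GAGE1, one of a tandem family of small melanoma antigens, had 1.45, 0.719 and 0.389 CPM with anle138b and 1.34, 1.63 and 1.40 CPM without, a difference of -0.91 ± 0.39 with an adjusted p of 0.557 in edgeR. It rests on 116 counts in all. PAGE1 had 1.45, 0.799 and 1.06 CPM with anle138b and 0.244, 1.56 and 0.679 CPM without, and its difference of 0.49 ± 0.52 was smaller than its error. PAGE2 had 1.07, 0.958 and 1.24 CPM with anle138b and 1.22, 0.963 and 0.764 CPM without, and MAGEB6 had 1.61, 1.60 and 0.955 against 2.07, 2.44 and 1.36 CPM. MAGEB6 was lower in the treated libraries of each set (-0.49 ± 0.25), with an adjusted p of 0.680 in edgeR.

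**Figure D3:**
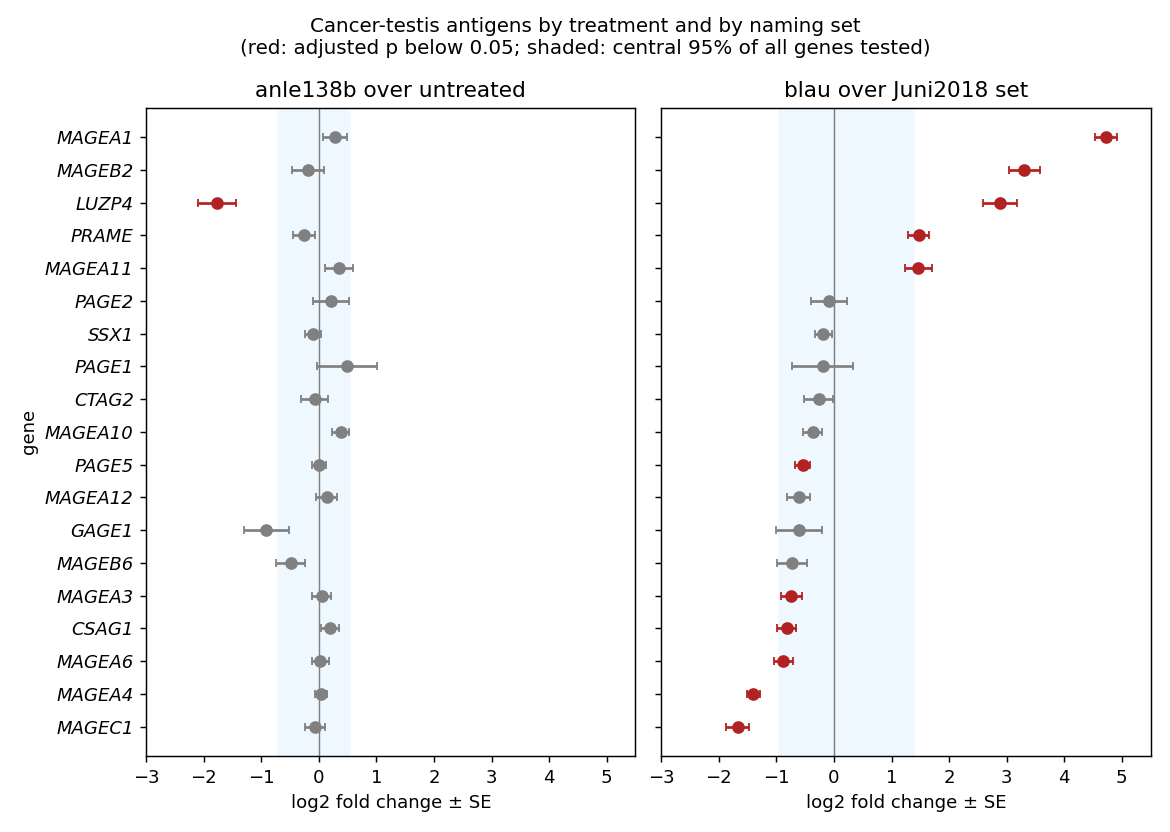
Log2 fold change with its standard error for the 19 antigens tested, for anle138b over untreated (left) and blau over Juni2018 (right), with the central 95% of all 20423 genes tested shaded and adjusted p below 0.05 in red. On the left only LUZP4 is red. On the right 5 genes are red above 0 and 6 below it.

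More antigens differed between the naming sets than with treatment. In the same edgeR fit, 3157 genes (15.5%) differed between blau and Juni2018 at an adjusted p below 0.05, 1699 higher (8.32%) and 1458 lower (7.14%). Of the 19 antigens tested, 11 differed: 5 were higher in blau (MAGEA1, MAGEB2, LUZP4, PRAME and MAGEA11) and 6 were lower (MAGEC1, MAGEA4, MAGEA6, CSAG1, MAGEA3 and PAGE5). The filter needs enough reads in 3 libraries, so reads in the 2 blau libraries alone do not suffice. Reads in the Juni2018 libraries alone can suffice, and an antigen high in blau needs a further Juni2018 library. SSX3 (145 counts in blau, 10 in Juni2018) and CT83 (49 and 2) did not pass. The numbers of calls describe the 19 that passed and not the family. The median over the 19 was -0.37, beside -0.02 over all genes. The sets did not overlap for 13 of the 19, and for 38.3% of all genes tested.

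MAGEA1 (ENSG00000198681, chrX:153179285-153183880, plus strand) had the greatest difference of the antigens. It stood at 0.841, 0.719, 0.609 and 0.519 CPM in the Juni2018 libraries (anle138b 1 and 2, untreated 1 and 2) and at 19.2 and 16.6 CPM in the blau libraries (anle138b 3, untreated 3). The counts were 11, 9, 10 and 7 against 543 and 391. The gene was close to its lower limit in 4 tumors and among the well expressed antigens in the other 2, treated and untreated alike. The log2 difference was 4.73 ± 0.20 (SE, 26.5-fold), with an adjusted p of 2.40e-06 in edgeR, and ranked 10 among 20423 genes. It was 4.62 between treated libraries and 4.88 between untreated ones.

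MAGEB2 (ENSG00000099399, chrX:30215560-30220089, plus strand) lies on the other arm of X, far from the MAGEA cluster. It had 0.459, 0.559, 0.609 and 0.963 CPM in Juni2018 and 6.44 and 6.41 CPM in blau, a log2 difference of 3.31 ± 0.26 with an adjusted p of 6.50e-05 in edgeR. Both blau libraries held the gene at nearly the same level. MAGEB2 did not pass the filter in the Juni2018 libraries alone, so its place in the test rested on its blau reads. LUZP4 was higher in blau by 2.89 ± 0.30 (adjusted p = 3.06e-04, edgeR), with 2.28 between treated and 3.24 between untreated libraries. MAGEA1 and MAGEB2 were 2 of the 92 genes (0.450% of those tested) that were called and at least 8-fold higher in blau.

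PRAME (ENSG00000185686, chr22:22547701-22559361, minus strand), a repressor of retinoic acid receptor signaling and a T-cell target, showed the same direction from another chromosome. It had 2.37, 2.56, 2.92 and 2.74 CPM in Juni2018 and 6.55 and 8.19 CPM in blau, a log2 difference of 1.47 ± 0.18 with an adjusted p of 8.67e-04 in edgeR. The range within each set was narrow beside the gap. MAGEA11 (chrX:149688228-149717266, plus strand), a coregulator of the androgen receptor at the far end of the MAGEA region, had 2.07, 3.04, 2.50 and 1.56 CPM against 7.22 and 5.52 CPM. Its difference was 1.46 ± 0.24 with an adjusted p of 0.00389 in edgeR. These 5 genes kept their direction and their call under each alternative in which they were tested.

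**Figure D4:**
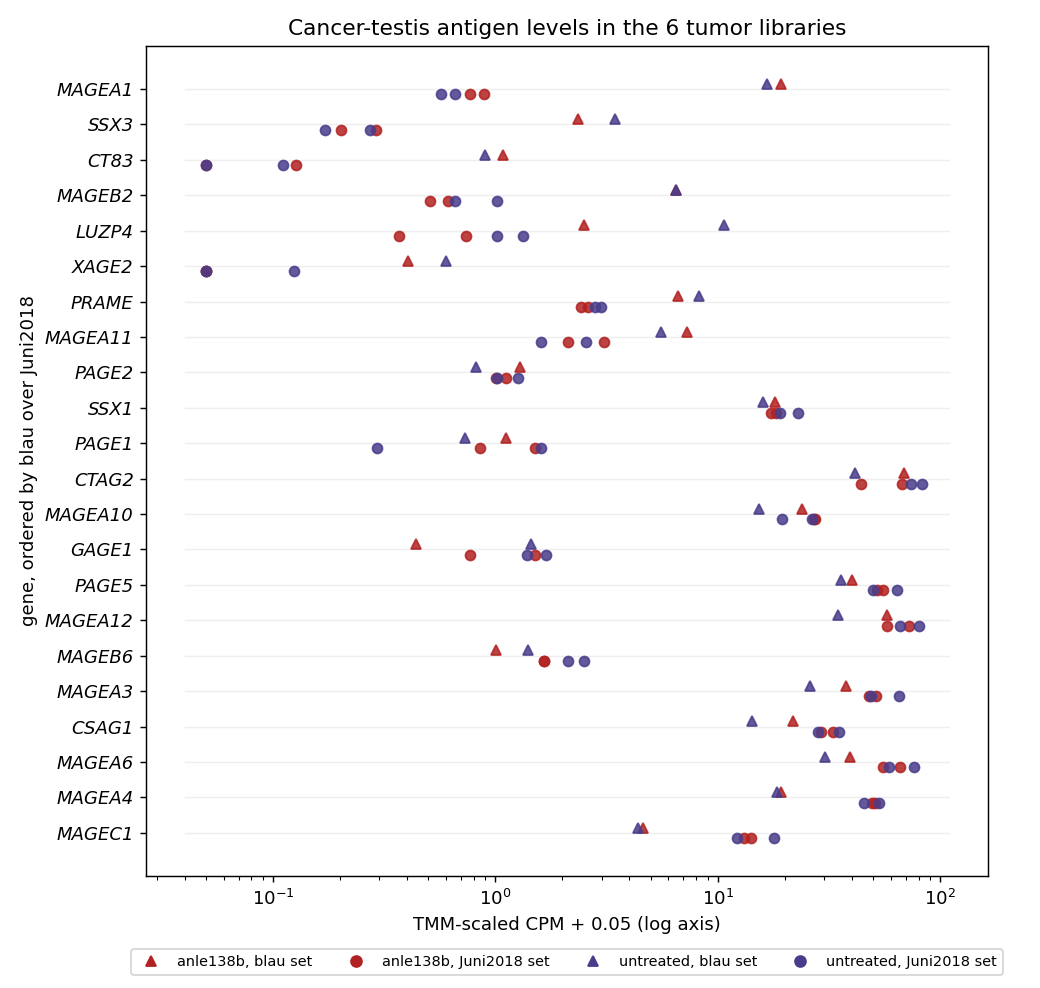
TMM-scaled CPM plus 0.05 (log axis) in each of the 6 libraries for the 19 antigens that passed the filter and for SSX3, CT83 and XAGE2, ordered by blau over Juni2018. Circles are Juni2018 and triangles blau libraries; red is anle138b and dark blue untreated. At the top the triangles stand apart to the right, as MAGEA1 at 19.2 and 16.6 CPM, and at the bottom to the left.

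Some antigens that did not pass the filter had unequal counts in the sets, and they are given as counts without p-values. SSX3 and CT83 passed only the filter by naming set, chosen after seeing the data. They entered it through their blau reads, so its p-values are not used for them. SSX3, of the family of transcriptional repressors fused in synovial sarcoma, had 0.153, 0.240, 0.122 and 0.222 CPM in Juni2018 and 2.30 and 3.39 CPM in blau. Its 10 against 145 counts gave a ratio of rates, blau over Juni2018, of 15.5 with a 95% exact counting interval of 8.21 to 33.1. CT83, whose product is known as a lung and stomach cancer antigen, had 2 counts in the 4 Juni2018 libraries together and 49 in the 2 blau libraries, or 0.0765, 0, 0.0609 and 0 CPM against 1.03 and 0.849 CPM. The ratio was 26.2 (interval 6.89 to 222.8). XAGE2 had 1 count in Juni2018 and 23 in blau, a ratio of 24.6 (interval 4.00 to 1015). SYCP1, a part of the synaptonemal complex that pairs chromosomes in meiosis, had 3 against 17 counts (ratio 6.07, interval 1.76 to 32.3), and MAGEB1 2 against 10 (5.36, interval 1.14 to 50.3). SSX5 had 0 against 10 counts, of which 9 were in anle138b 3 and 1 in untreated 3, with a lower limit of the ratio of 2.40. MAGEC2, a partner of the ligase TRIM28, went the other way with 23 against 7 counts (0.326, interval 0.118 to 0.785). These intervals cover counting error only. The other antigens of low count, such as DDX43 with 9 against 11 counts, had intervals that included a ratio of 1.

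The antigens that were lower in blau were among the most abundant ones. MAGEC1 (chrX:141903894-141909388, plus strand) had 14.0, 13.1, 12.2 and 17.8 CPM in Juni2018 and 4.56 and 4.33 CPM in blau, a difference of -1.67 ± 0.20 with an adjusted p of 6.58e-04 in edgeR. MAGEA4 (chrX:151912509-151925170, plus strand), the target of a T-cell therapy for synovial sarcoma, had 49.3, 51.0, 45.5 and 52.9 CPM against 19.2 and 18.4 CPM. The difference was -1.40 ± 0.12 with an adjusted p of 8.68e-05 in edgeR. For both genes the blau libraries lay well under the lowest Juni2018 library, and the difference was alike between treated (-1.57 and -1.39) and untreated libraries (-1.79 and -1.42). MAGEA4 and the antisense gene MAGEA4-AS1 overlap, and without strand their reads cannot be told apart.

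The other 4 lower genes differed less, and their calls were lost without untreated 3. That fit leaves 1 blau library, as does the fit without anle138b 3. Between treated libraries the set differences were -0.62 for MAGEA6, -0.39 for MAGEA3, -0.52 for CSAG1 and -0.42 for PAGE5. Between untreated libraries they were -1.15, -1.13, -1.16 and -0.67, so the size of these differences depended in part on untreated 3. MAGEA6 and MAGEA3, near-identical genes 71.0 kb apart whose products direct TRIM28 to new targets, had 66.0, 55.1, 58.9 and 76.2 CPM against 39.4 and 30.3 CPM, and 51.5, 47.8, 48.8 and 65.0 CPM against 37.8 and 26.0 CPM. Their differences were -0.88 ± 0.16 and -0.74 ± 0.18, with adjusted p of 0.00805 and 0.0255 in edgeR. In both, untreated 3 was the lowest library. CSAG1 had 33.0, 29.1, 28.2 and 34.9 CPM against 21.6 and 14.1 CPM (-0.82 ± 0.17, adjusted p = 0.0130 in edgeR), and PAGE5 had 55.4, 52.0, 49.9 and 63.6 CPM against 40.1 and 35.7 CPM (-0.54 ± 0.13, adjusted p = 0.0227 in edgeR). Without untreated 3 the differences were -0.60 for MAGEA6 (adjusted p = 0.0926), -0.38 for MAGEA3 (adjusted p = 0.290), -0.51 for CSAG1 (adjusted p = 0.150) and -0.41 for PAGE5 (adjusted p = 0.218), all from edgeR. For PAGE5 the call was also lost without anle138b 1 (adjusted p = 0.0601).

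Of the 8 antigens that did not pass the test between sets, 4 had a mean of at least 10 CPM: MAGEA12, CTAG2, MAGEA10 and SSX1. MAGEA12 had 72.6, 57.8, 65.8 and 80.2 CPM in Juni2018 and 57.3 and 34.5 CPM in blau (-0.61 ± 0.20, adjusted p = 0.0676 in edgeR). It was called by DESeq2 (adjusted p = 0.0260), without the filter, and without anle138b 2 or anle138b 3. CTAG2 had 67.2, 44.2, 73.7 and 82.4 CPM against 68.6 and 41.3 CPM (-0.27 ± 0.26), and the sets overlapped. Without anle138b 3 its difference was -0.92 (adjusted p = 0.0329) and without anle138b 2 it was -0.52 (adjusted p = 0.0340), in edgeR. SSX1 had 18.2, 17.3, 19.1 and 23.0 CPM against 17.9 and 15.9 CPM (-0.19 ± 0.15), while SSX3, 101.4 kb away on the opposite strand, had a ratio of 15.5 in counts. MAGEA10 (-0.37), MAGEB6 (-0.73), GAGE1 (-0.61), PAGE1 (-0.20) and PAGE2 (-0.09) completed the 8, with adjusted p from 0.0870 to 0.879 in edgeR.

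For most antigens with a mean of at least 10 CPM, the mean difference between treated and untreated tumors had opposite signs in the sets. They were CTAG2, MAGEA12, MAGEA3, MAGEA6, CSAG1, SSX1 (-0.24 in Juni2018, 0.17 in blau), PAGE5 (-0.08, 0.17) and MAGEC1 (-0.145, 0.077). MAGEA4 (0.03, 0.06) and MAGEA10 (0.24, 0.64) had the same sign in both. The share of all genes with opposite signs was not counted. In the Juni2018 libraries CTAG2 was lower with anle138b (67.2 and 44.2 against 73.7 and 82.4 CPM), and in the 2 blau libraries it was higher (68.6 against 41.3 CPM). The log2 differences were -0.49 and 0.73. MAGEA12 differed by -0.16 in Juni2018 and 0.73 in blau, MAGEA3 by -0.20 and 0.54, MAGEA6 by -0.16 and 0.38, and CSAG1 by -0.02 and 0.61. A test of the interaction in edgeR called 0 of 20423 genes (0.00%), 1345 having an unadjusted p below 0.05, and so none of the 19 antigens. CTAG2 (1.22 ± 0.31, adjusted p = 0.617), MAGEA12 (0.89 ± 0.26, adjusted p = 0.648), MAGEA3 and CSAG1 had unadjusted p-values below 0.05 in that test. DESeq2 called 31 genes (0.152%) and none of the antigens. Without a low-count filter edgeR called 262 genes (0.564%), among them CTAG2 (adjusted p = 1.30e-04) and MAGEA12 (adjusted p = 0.0275). The blau set holds 1 treated and 1 untreated library, so its difference has no replicate check.

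**Figure D5:**
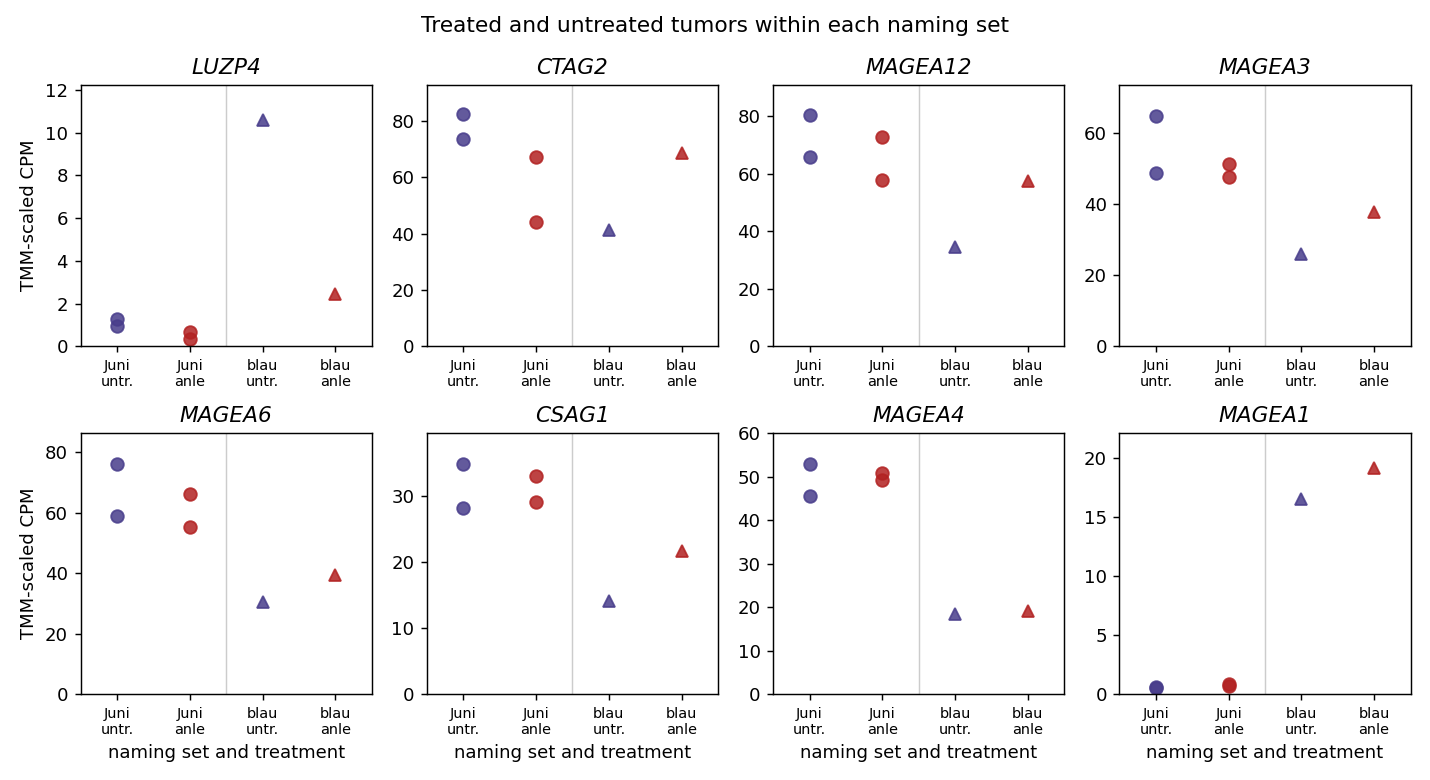
TMM-scaled CPM of 8 antigens by naming set and treatment, 1 point per library (Juni2018: 2 treated and 2 untreated; blau: 1 of each), on linear axes from 0. LUZP4 is lower with anle138b in both sets, CTAG2 changes order between the sets, and MAGEA4 and MAGEA1 differ by set and hardly by treatment.

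Between the outermost MAGEA members tested here (chrX:149688228-153183880) lie 11 of the antigens and 26 other protein-coding genes, 13 of which were tested. Between sets, 1 of the 13 was higher (MAMLD1, 0.85, adjusted p = 0.0394 in edgeR) and 1 was lower, PNMA5, or 15.4% beside 15.5% of all genes tested. PNMA5, a gene of the paraneoplastic antigen family, lies 185 kb from MAGEA1 and had 281, 341, 253 and 338 CPM in Juni2018 against 50.2 and 70.6 CPM in blau. Its difference was -2.34 ± 0.19 with an adjusted p of 6.50e-05 in edgeR, opposite in direction to MAGEA1. Elsewhere in the region, PNMA3 had 0, 0, 0 and 2 counts in Juni2018 and 44 and 35 in blau. PASD1, also known as a cancer-testis antigen, had 0, 4, 2 and 5 against 65 and 46 counts, and GABRE had 2, 5, 8 and 2 against 70 and 53 counts. These 3 genes did not pass the filter and were named after their values had been seen. They were not in the main test, so the 13 neighbors tested leave them out. GABRA3, VMA21 and CETN2, in the same region, had differences of 0.12, -0.14 and 0.19 and were not called. Over X without the antigens, 91 genes were higher and 29 lower of 583 tested (20.6% called, median 0.16). With treatment 0 of the 13 neighbors differed.

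Further cancer-testis antigens, in a list of 93 symbols of which 36 were tested, gave 0 calls for treatment and 4 higher and 0 lower for the sets. The share called between sets was 11.1%, beside 15.5% of all genes tested (8.32% higher and 7.14% lower). Genes with reads mainly in the 2 blau libraries do not pass the filter, so this share describes the 36 tested and not the list. CTNNA2 (1.67), TFDP3 (1.29), MORC1 (1.06) and TAF7L (1.06) were the 4. The median over the 36 was 0.02. XAGE5, which did not pass the filter and was named after its values had been seen, had 8, 8, 9 and 6 counts in Juni2018 and 120 and 86 in blau. Near-identical copies of the antigens summed to 1.63 to 2.22 CPM over all libraries. The type II MAGE genes, which are expressed in normal tissues too, were higher in blau in 6 of 8 tested (median 0.52). TRO (1.13), MAGED2 (0.57), NSMCE3 (0.55) and MAGED1 (0.48) were the 4 of these with the smallest p. None of them differed with treatment.

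Genes whose products work with the antigens or control them were called between sets at shares near that of all genes tested (15.5%). Of 16 partners of MAGE and PRAME proteins, 0 differed with treatment, and 3 (18.8%) were lower in blau: TRIM28 (-0.67), TRIM8 (-0.67) and SKP2 (-0.42). Of 42 genes of DNA methylation and silencing, 0 differed with treatment, and 3 were higher (ZBTB33 at 0.50, MGA at 0.40, HELLS at 0.40) and 4 lower in blau (16.7% in all), with a median of -0.04. MBD1 (-0.43) was one of the 4. Among 7 germline genes known to be held silent by PCGF6 and E2F6, 1 was higher in blau and 0 differed with treatment. The most abundant of them, TDRKH and SYCP3, had set differences of 0.02 and 0.05. The MHC class I pathway, which presents antigen peptides, had 0 of 16 genes called for treatment and 2 higher in blau, B2M (0.67) and HLA-B (0.66).

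Genes used as markers of other cell types moved with the naming sets in part. The tumors grew from a human line in a host animal, and reads were counted on human genes. Reads of the tumor cells and host reads aligned to human genes cannot be told apart here. The sums are therefore not amounts of those cell types. Fibroblast and pericyte markers summed to 617 and 893 CPM in blau and 455 to 567 CPM in Juni2018, with 3 of 13 called higher (COL1A1 at 0.81, COL3A1 at 0.99, COL1A2 at 0.95), and LUM was higher with treatment (0.70). Endothelial markers summed to 28.9 and 31.7 CPM against 24.2 to 27.5 CPM, with KDR called higher (2.20) and a median difference of -0.38 over the 7 tested. Without KDR they summed to 17.7 and 19.0 CPM in blau and 22.2 to 25.2 CPM in Juni2018. Myeloid markers summed to 45.7 and 55.4 against 27.9 to 50.6 CPM, with ITGAM called higher (1.09) among 7 tested. Lymphocyte markers summed to 0.974 to 3.22 CPM over all libraries, with 1 of 10 tested and not called (GNLY, -0.23). Keratinocyte markers summed to 75.2 and 230 CPM in blau and 77.8 to 139 CPM in Juni2018, with TP63 higher in blau (1.39) and CDH1 lower with treatment (-1.16). CDH1 (53.8 and 205 CPM in blau) and KRT10 (mean 19.5 CPM) made up most of the sum. KRT5, KRT14, KRT1 and KRT6A had means of 0.389, 0.443, 0.0972 and 0.0548 CPM. Melanocyte antigens summed to 12790 and 14770 CPM in blau and 14390 to 17970 CPM in Juni2018. PMEL (mean 11070 CPM) and DCT (mean 2724 CPM) made up most of the sum. Of the melanocyte antigens, TYRP1 (1.73) and MLANA (0.47) were higher in blau, and OCA2 was higher with treatment (1.88). Of 16 melanoma line markers, 6 were higher in blau, S100B (0.86) and CSPG4 (0.89) among them. The part of these shifts in the antigen differences was not tested. Markers of male germ cells, the normal source of the antigens, summed to 7.19 to 11.7 CPM, 4 of the 12 were at 0 in all libraries, and SYCP3 (6.44 to 10.3 CPM) made up most of the sum.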

How the data were processed

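RNA was measured by sequencing of 6 xenograft tumors, 3 with anle138b and 3 without. The deposited values are whole-number counts of reads per Ensembl gene, 1 table per tumor, not normalized. Per the labels' protocols, RNA was taken with Trizol and libraries made with the TruSeq RNA v2 kit, which does not mark strand. Per the submitters' processing notes, reads were made with bcl2fastq (version 2.17.1.14), the build was hg38, and STAR (version 2.5.2a) and featureCounts (version 1.5.0-p1) are named as the other tools; the settings for strand, multiple alignments and mouse reads are not given in the sources used here. Symbols, positions and exon lengths were taken from GENCODE 29 by Ensembl identifier.

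Counts were filtered with filterByExpr by treatment group (minimum count 10, minimum total 15), scaled by TMM and fitted with edgeR 4.0.16 (R 4.3.3) by quasi-likelihood with naming set and treatment as terms (3 residual degrees of freedom from 6 libraries, adjusted as edgeR does; 2 for the interaction). The biological coefficient of variation was 12.8%. P-values were adjusted over all 20423 genes by Benjamini-Hochberg, with a threshold of 0.05. The code was tested on simulated data. The alternatives were DESeq2 1.42.0 (size factors and Wald test), library size alone, no filter, 50 counts in 3 libraries, summed copies, other model terms, each library left out and, chosen after seeing the data, a filter by naming set. Shared stretches were counted over 50-base words of all transcripts, and promoter letters over 250 bases upstream. The members and lists were chosen with earlier results of these data known. Antigens that passed the filter are named with their values, list genes where called with a mean of at least 1 CPM (at most 4 per list and comparison, otherwise the 2 highest), and neighbors at a mean of at least 1 CPM.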

Additional observations from a re-analysis of the deposited data

Results flagged for a closer look

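For 3 antigens every treated library moved one way in one naming set and the opposite way in the other, while the interaction was not called. CTAG2 was lower with anle138b in Juni2018 and higher in the 2 blau libraries, an interaction of 1.22 on the log2 scale (adjusted p = 0.617, edgeR). MAGEB2 was lower in Juni2018 and at nearly the same level in the 2 blau libraries (6.44 treated, 6.41 untreated CPM), an interaction of 0.61. SSX1 was lower in Juni2018 and higher in blau (17.9 treated, 15.9 untreated CPM), an interaction of 0.41. The blau side of each is 1 treated and 1 untreated library.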

How the results depend on the processing

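With 2 blau libraries, a set difference rests on few tumors, and antigens under about 1 CPM are limited by counting. Calls of the 5 antigens higher in blau and of MAGEA4 and MAGEC1 held wherever they were tested. Genes called for treatment numbered 754 without the filter, 412 with DESeq2, 9 without the set term, 92 in Juni2018 alone and 89 to 392 with a library left out; members lower numbered 0 with 50 counts in 3 libraries, without the set term and in Juni2018 alone, and 0 to 1 with a library left out. Genes called for the set numbered 6250 without the filter and 993 to 5960 with a library left out; members higher numbered 9 without the filter and 0 with 50 counts in 3 libraries (none of the 5 was tested), and members lower 2 to 8 with a library left out. Interaction calls numbered 31 with DESeq2, 262 without the filter (2 members higher) and 11 with library size alone. The cause of these moves was not tested.

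Small uncalled differences changed sign. For treatment, MAGEA3 was -0.028 without the set term and -0.19 in Juni2018 alone, MAGEA6 -0.042 and -0.15, and PAGE5 -0.017 and -0.077 (-0.0056 with library size alone); in Juni2018 alone MAGEA12 was -0.16, CSAG1 -0.021 and PAGE2 -0.11. With a library left out, treatment differences ranged from -0.20 to 0.24 for MAGEA3, -0.15 to 0.18 for MAGEA6, -0.16 to 0.32 for MAGEA12, -0.18 to 0.12 for MAGEC1, -0.48 to 0.20 for CTAG2, -0.021 to 0.34 for CSAG1, -0.24 to 0.020 for SSX1, -0.11 to 0.43 for PAGE2 and -0.078 to 0.13 for PAGE5. Set differences ranged from -0.92 to 0.32 for CTAG2, -0.40 to 0.028 for SSX1, -0.53 to 0.32 for PAGE1 and -0.52 to 0.30 for PAGE2. The MAGEB6 interaction was 0.0023 with DESeq2 and 0.0089 without the filter. No paired analysis was possible because the replicate numbers used here only name the libraries, and in the titles no number is shared by a treated and an untreated tumor.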
